A study of Mus musculus with 12 samples.

Results

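The 10 genes described here encode signalling proteins of the gp130 cytokine family. They are the cytokines Il6 and Lif, the receptor subunits Il6st, Lifr, Osmr and Cntfr, the kinases Jak1 and Jak2, the transcription factor Stat3 and the feedback inhibitor Socs3. They were chosen by name, with earlier results of these data known. All 10 were matched by symbol among the 21883 protein-coding genes of the RefSeq table (mm10, also called GRCm38). Their sites were all ATAC-seq summits inside the gene or within 50 kb of either end. ATAC-seq marks open chromatin, and a summit is the base at which a peak of reads is highest. Of 155267 summits in 4 lists, 231 met this rule, and none was near more than 1 of the genes.

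The study profiled dorsal root ganglia, which hold the cell bodies of sensory neurons together with glia, vascular and immune cells. There were 4 groups of 3 libraries: wild type (Silc1+/+) and Silc1-/- mice, which lack the long noncoding RNA Silc1, each after sham operation or injury. Injury was a crush of the sciatic nerve, 2 times for 30 seconds, and each extraction used 6 fresh lumbar ganglia. The labels name C57black6 Ola HSD males and other strains bred locally, and do not say which mice served which group, their age, the time after surgery or whether animals were pooled.

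Each group had 1 deposited list of summits, so the values below have no spread between animals, and differences between groups carry no test. Read depth is unknown. Intervals are 95% intervals for counting error only. In bulk tissue, fewer open cells of a type and less opening per cell cannot be told apart. The wild-type lists held 27279 (sham) and 43841 (injured) summits, and the Silc1-/- lists 48332 (sham) and 35815 (injured). Below, where 4 values stand in a row, they follow this order: wild-type sham, wild-type injured, Silc1-/- sham, Silc1-/- injured. As a check of the tissue, 3, 4, 6 and 3 of 9 sensory neuron genes with a known start had a summit within 1 kb of it. For Schwann cell and satellite glia genes the numbers were 1, 3, 3 and 1 of 6, for macrophage genes 0, 1, 0 and 0 of 7, for endothelial and mural genes 0, 1, 0 and 0 of 5, and for skeletal muscle, a tissue outside the ganglion, 0, 0, 1 and 0 of 4. Over 17491 coding genes with a known start the shares were 49.6%, 54.8%, 53.8% and 48.6%. Muscle genes thus had 1 open start, in a single list, and so did macrophage genes and endothelial and mural genes. The check therefore does not tell these cell types from muscle.

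In this pathway a cytokine binds its own receptor subunit, which pairs with gp130, the product of Il6st. Janus kinases bound to the receptor then phosphorylate STAT3, which enters the nucleus and activates genes, Socs3 among them. SOCS3 binds gp130 and dampens the signal. In sensory ganglia, STAT3 is known to be activated after sciatic nerve injury and to promote axon regrowth, and SOCS3 is known to limit it.

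The start regions of Stat3, Jak1 and Jak2 are shown as those of the transcription factor and the kinases, and all 4 lists placed a summit inside each of them. The same held for the windows of Lifr, which is not shown, and Socs3, shown further on. The windows run from 250 bases before to 50 bases after the RefSeq start and are written 5′ to 3′ on the coding strand. Capitals mark the bases from the first to the last summit of the 4 lists. The Stat3 window is chr11:100939491-100939790 on the minus strand, and its summits spanned 165 bases.
Stat3: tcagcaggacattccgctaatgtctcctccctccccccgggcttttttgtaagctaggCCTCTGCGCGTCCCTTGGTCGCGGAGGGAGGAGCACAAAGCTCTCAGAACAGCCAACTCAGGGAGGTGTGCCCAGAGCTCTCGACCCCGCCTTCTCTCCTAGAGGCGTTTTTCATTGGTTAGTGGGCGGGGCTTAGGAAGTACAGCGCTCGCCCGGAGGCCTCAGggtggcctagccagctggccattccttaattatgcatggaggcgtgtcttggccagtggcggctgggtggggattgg
The Jak1 window is chr4:101265174-101265473 on the minus strand, and the summits spanned 52 bases.
Jak1: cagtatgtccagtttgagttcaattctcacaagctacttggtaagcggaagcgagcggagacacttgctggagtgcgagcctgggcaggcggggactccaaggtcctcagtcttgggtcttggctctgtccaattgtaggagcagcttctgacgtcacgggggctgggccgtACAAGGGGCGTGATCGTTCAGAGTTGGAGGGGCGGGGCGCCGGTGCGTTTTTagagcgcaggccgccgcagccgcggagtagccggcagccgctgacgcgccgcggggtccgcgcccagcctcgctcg
The Jak2 window is chr19:29251553-29251852 on the plus strand, and the summits spanned 31 bases.
Jak2: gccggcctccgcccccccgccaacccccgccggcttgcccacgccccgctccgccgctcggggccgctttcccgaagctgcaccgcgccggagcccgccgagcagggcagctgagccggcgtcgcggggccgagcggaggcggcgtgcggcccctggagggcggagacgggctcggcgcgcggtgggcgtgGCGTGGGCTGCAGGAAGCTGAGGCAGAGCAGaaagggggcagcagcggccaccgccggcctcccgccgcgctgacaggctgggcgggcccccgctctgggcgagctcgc

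In the windows of Socs3, Il6, Lif and Osmr, capitals mark a match to TTCNNNGAA, the STAT consensus, or TGANTCA, the AP-1 consensus. Both motifs read the same on both strands. The windows are chr11:117969317-117969616 (minus strand) for Socs3, chr5:30012864-30013163 (plus) for Il6, chr11:4257318-4257617 (plus) for Lif and chr15:6874264-6874563 (minus) for Osmr.
Socs3: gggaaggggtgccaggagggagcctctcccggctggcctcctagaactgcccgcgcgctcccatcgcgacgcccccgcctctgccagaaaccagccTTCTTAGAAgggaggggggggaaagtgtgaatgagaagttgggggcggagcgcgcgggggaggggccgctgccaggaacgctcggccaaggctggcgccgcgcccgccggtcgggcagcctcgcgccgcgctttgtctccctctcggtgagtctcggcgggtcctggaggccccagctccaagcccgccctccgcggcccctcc
Il6: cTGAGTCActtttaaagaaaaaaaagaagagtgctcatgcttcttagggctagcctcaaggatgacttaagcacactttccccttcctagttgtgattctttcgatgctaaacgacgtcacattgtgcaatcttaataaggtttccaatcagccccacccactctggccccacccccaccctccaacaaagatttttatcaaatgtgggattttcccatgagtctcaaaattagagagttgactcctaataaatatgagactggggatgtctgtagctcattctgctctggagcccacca
Lif: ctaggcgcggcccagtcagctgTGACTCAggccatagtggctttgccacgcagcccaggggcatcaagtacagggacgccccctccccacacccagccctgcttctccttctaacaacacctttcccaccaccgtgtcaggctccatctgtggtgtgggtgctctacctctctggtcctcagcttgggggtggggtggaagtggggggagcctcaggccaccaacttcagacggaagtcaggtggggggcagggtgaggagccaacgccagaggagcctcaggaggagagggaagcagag
Osmr: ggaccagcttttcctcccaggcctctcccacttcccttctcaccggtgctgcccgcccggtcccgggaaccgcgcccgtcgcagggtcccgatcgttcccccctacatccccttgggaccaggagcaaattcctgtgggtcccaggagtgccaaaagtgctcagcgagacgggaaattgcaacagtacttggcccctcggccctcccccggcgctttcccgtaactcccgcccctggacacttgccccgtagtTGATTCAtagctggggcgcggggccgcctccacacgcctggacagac
TTCNNNGAA was found in 1 of the 16 start windows of the 10 genes, that of Socs3, and in 7.69% of 21262 windows of coding genes. TGANTCA was found in 3 of the 16 windows and in 6.99% of all. The match of Socs3, TTCTTAGAA, began 154 bases before the start. The nearest summit lay 157, 168, 21 and 195 bases from it, so that of Silc1-/- sham ganglia was the closest. It was a low second summit of that list, at 117969541 with a score of 3.02. The highest Silc1-/- sham summit at this start, with a score of 13.02, lay 29 bases downstream of the start, at 117969337. The match of Osmr, TGATTCA, lay 23 bases from the wild-type injured summit and 103 from the Silc1-/- sham summit. Those of Il6 and Lif were 391 bases or more from any summit. A match is a description of letters, not a binding site.

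Of the 10 genes, 7 had a summit within 1 kb of a start in the RefSeq promoter table in all 4 lists: Il6, Il6st, Lifr, Jak1, Jak2, Stat3 and Socs3. Over 17491 coding genes with a known start the share was 44.4%. Osmr had one in 2 lists, and Lif and Cntfr in none. By list the numbers were 7, 8, 8 and 7, against 49.6%, 54.8%, 53.8% and 48.6% of coding genes.

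The summit at the Stat3 start had the highest score near any member in both wild-type lists. The score, the authors' own value on a −log10 scale, was 39.95 in sham (position 100939660) and 85.04 in injured (100939568) wild-type ganglia. In Silc1-/- ganglia it was 43.1 in sham (100939568) and 29.4 in injured (100939732). Scores depend on depth, so each was also ranked among the 14347 loci that have a summit in all 4 lists. Stat3 stood at percentile 92.7, 97.7, 93.5 and 91.5, and thus high in every list.

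Jak1, a kinase that binds gp130, had scores of 31.6, 66.6, 32.8 and 11.1 at its start. These were percentiles 86.9, 94.5, 86.8 and 57.7, so the Silc1-/- injured list stood apart from the others. Il6st, the gp130 gene, had scores of 29.1, 31.9, 34.5 and 17.3, at percentiles 84.9, 72.2, 88.2 and 76.3. Here both injured lists ranked below both sham lists. Lifr, which pairs with gp130 to bind LIF, had scores of 8.91, 8.61, 9.49 and 5.33, at percentiles 40.1, 23.4, 35.1 and 24.1. At this start, too, both injured lists ranked below both sham lists, but the ranked summits differed in place. In the sham lists they lay 2 and 3 bases from the start, and in the injured lists 217 and 199 bases upstream. The sham lists also had summits 242 (wild type) and 274 (Silc1-/-) bases upstream, with scores of 7.26 and 5.22. At that upstream place the sham score was thus not above the injured score in either genotype. Jak2 had scores of 17.9, 17.44, 11.1 and 11.4 and percentiles 68.3, 48.9, 41.9 and 58.3. Socs3 had scores of 14.7, 20.6, 13.02 and 12.9 and percentiles 60.6, 55.1, 49.9 and 64.0. For Jak2 and Socs3 both wild-type scores were above both Silc1-/- scores, while the percentiles among loci of all 4 lists did not separate genotypes or treatments.

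Il6 had scores of 6.33, 16.2, 12.1 and 5.80 at positions 30013262 to 30013309, which lie 148 to 195 bases downstream of its start. The percentiles were 25.5, 46.1, 46.4 and 27.6, so the wild-type injured and Silc1-/- sham lists were higher than the other lists. Every other summit near Il6 was in a wild-type list, 7.72 to 9.20 kb upstream, with scores of 4.20 in sham and 1.99, 1.99 and 2.57 in injured ganglia. With no replicate lists, it is not known how far such ranks move between animals.

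**Figure D1:**
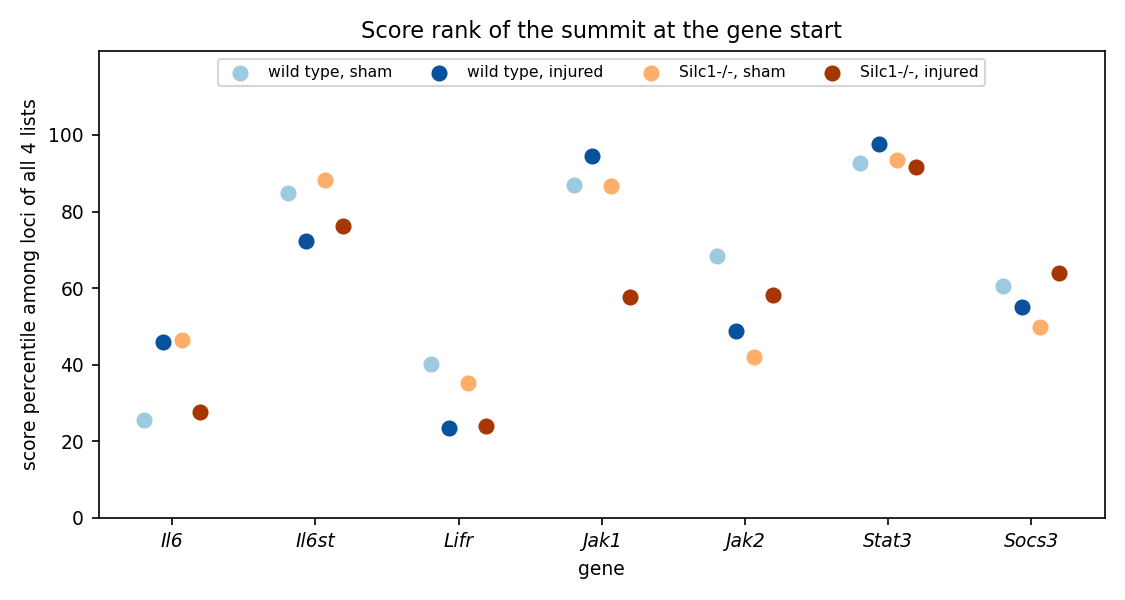
Score percentile (vertical axis, 0 to 100, among the 14347 loci with a summit in all 4 lists) of the highest summit within 1 kb of the start, for the 7 genes open there in every list. Each point is 1 list; Stat3 lies between 91.5 and 97.7 in all of them, and Jak1 drops to 57.7 in Silc1-/- injured ganglia.

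Base composition set Il6 apart among the genes with an open start. GC made up 44.0% of its window, with 3 CpG dinucleotides and an observed to expected CpG ratio of 0.214. The windows of Il6st, Lifr (at 7129572), Jak1, Jak2 and Socs3 had ratios of 0.769 to 1.07, and that of Stat3 0.545. Of 9599 coding-gene windows with a ratio of at least 0.6 and at least 50% GC, 75.2% were open in all 4 lists, against 15.0% of the 11663 others. The windows of Il6 and Stat3, both open in all 4 lists, were among these others. Cntfr, the receptor subunit for ciliary neurotrophic factor, was the other way round. Of its 6 starts in the promoter table, which lie inside the RefSeq gene, 4 had ratios of 0.888 to 1.20, and none had a summit within 1 kb in any list. CpG-rich windows without a summit in any list made up 9.17%. This split was chosen after the values had been seen.

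The nearest summits to Cntfr lay 507 and 511 bases outside the gene, on its 5′ side, and 1.56 to 1.57 kb upstream of the nearest start in the promoter table. They were at 41697602 in wild-type injured (score 3.18) and 41697598 in Silc1-/- sham ganglia (5.06). No list had a summit inside Cntfr (chromosome 4, 41657498 to 41697091). Of its 26 summits within 50 kb, 3 had Cntfr as the nearest coding gene.

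The Osmr start, which belongs to the receptor subunit for oncostatin M, had a summit at 6874333 in wild-type injured (score 1.99) and at 6874413 in Silc1-/- sham (3.51). Neither wild-type sham nor Silc1-/- injured ganglia had one. These scores are low, at percentiles 5.37 and 30.9 of their lists. Another site lay 35.5 to 35.6 kb upstream and was found in all 4 lists, with scores of 5.59, 9.48, 20.3 and 11.9. Among the loci of all 4 lists it stood at percentiles 21.2, 26.4, 69.6 and 61.1, higher in both Silc1-/- lists than in both wild-type lists.

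Lif had no summit within 1 kb of its start. All 4 lists had one inside the gene, 1.17 to 1.40 kb downstream, with highest scores of 3.93, 9.84, 7.004 and 3.31. A site 13.7 to 13.8 kb downstream of the start, also inside the gene, had scores of 4.74 (sham) and 8.23 (injured) in wild type and 7.60 in Silc1-/- sham ganglia. The Silc1-/- injured list had no summit there. A site 4.06 to 4.19 kb upstream had its highest score, 9.97, in Silc1-/- injured ganglia, with 2.87 in wild-type sham, 2.42 in Silc1-/- sham and none in wild-type injured. A site at Castor1, 39.4 kb upstream of Lif, had scores of 8.22, 15.9, 10.6 and 3.18. These were the highest near Lif in every list except Silc1-/- injured.

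Far sites with high scores were found next to several members. A site 48.4 to 48.5 kb upstream of Jak1 (chromosome 4, 101313661 to 101313704) had scores of 32.2, 50.05, 57.4 and 56.1, the last 2 being the highest near any member in the Silc1-/- lists. Its percentiles among loci of all 4 lists were 87.5, 87.2, 97.4 and 97.8. Another Jak1 site, 26.96 to 26.97 kb upstream (101292183 to 101292197), had scores of 14.7, 20.7, 3.63 and 3.73 and percentiles of 60.6, 55.3, 6.47 and 11.1. The genotypes thus stood in opposite order at these sites: the farther one ranked higher in both Silc1-/- lists, the nearer one in both wild-type lists. Jak1 is the nearest coding gene to both. They were singled out after their values had been seen. Socs3 had a site 5.76 to 5.78 kb downstream of its start, past the gene's end, with scores of 12.8, 19.97, 13.00 and 11.7. A Socs3 site 6.91 to 6.95 kb upstream was in 2 lists, at 13.1 in wild-type injured and 3.01 in Silc1-/- sham ganglia.

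**Figure D2:**
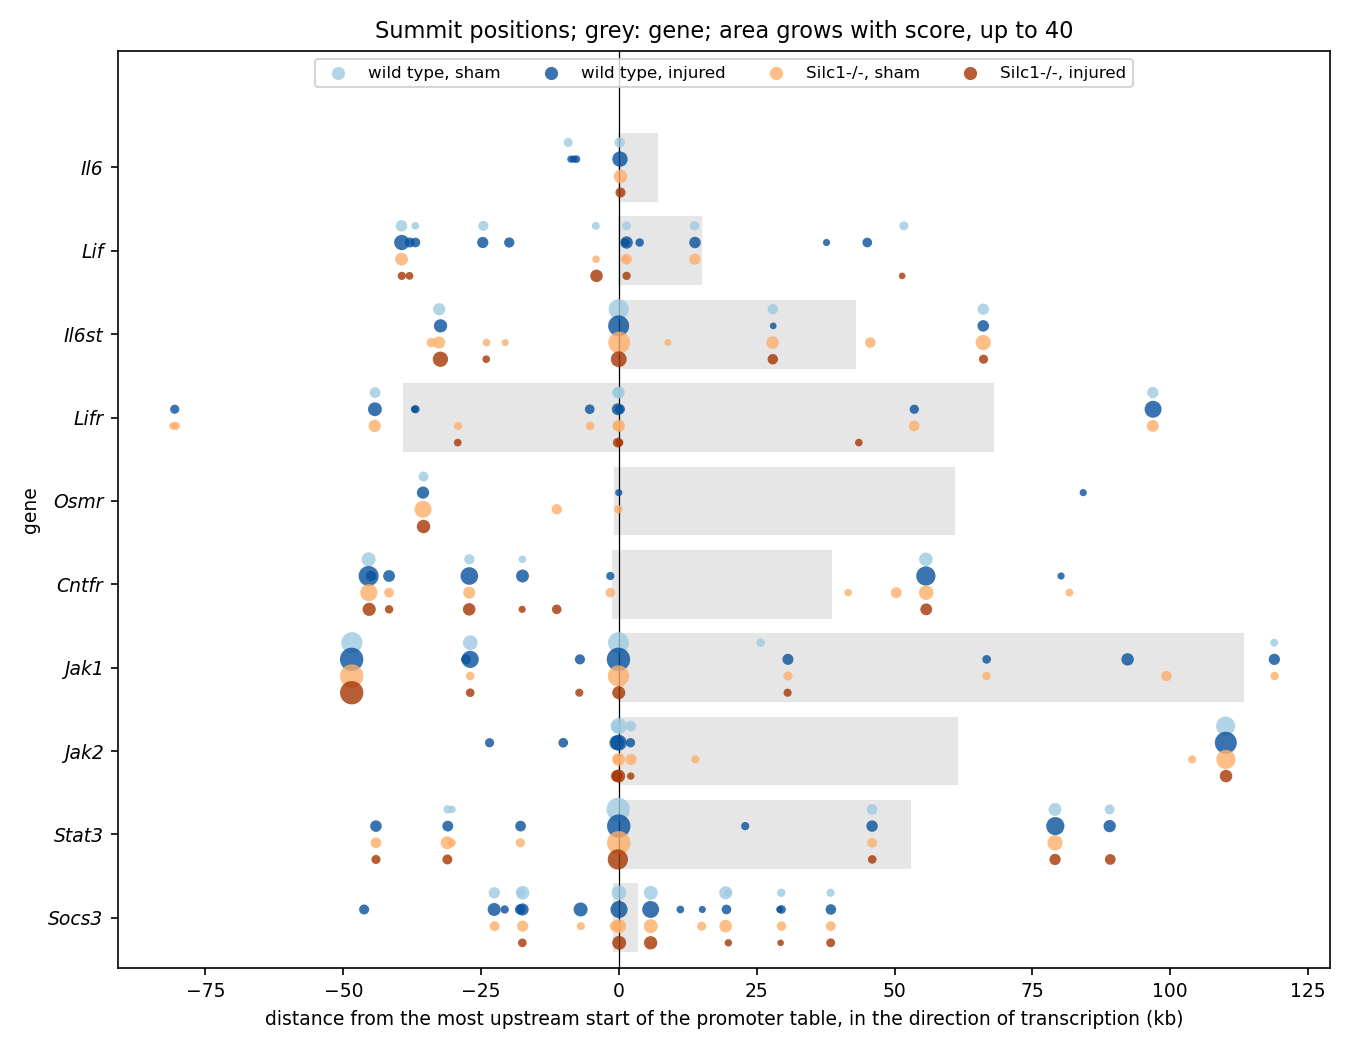
Summit positions of the 10 genes, in kb from the most upstream start of the promoter table along the direction of transcription (horizontal axis), with 1 row of points per list and the gene in grey. Point area grows with the score up to 40. Stat3 has large points of all 4 lists at the start, and Cntfr has no point inside the gene. At the Jak1 start the Silc1-/- injured point is smaller than those of the other lists.

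Summits near the members were most numerous in wild-type injured and least numerous in Silc1-/- injured ganglia. There were 46, 76, 66 and 43. As shares of each list these were 0.169% (0.126 to 0.225), 0.173% (0.139 to 0.217), 0.137% (0.107 to 0.174) and 0.120% (0.0892 to 0.162). After injury 9 of the 10 genes had more summits in wild type and 1 the same number, and in Silc1-/- ganglia 8 had fewer and 2 the same. Over the 20073 coding genes with a summit in any list, 69.1% had more and 8.34% fewer in wild type, and 16.8% had more and 61% fewer in Silc1-/- ganglia. Both held for 7 members (Lifr, Osmr, Cntfr, Jak1, Jak2, Stat3 and Socs3) and for 45.4% of coding genes.

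By gene, Socs3 had 9, 14, 11 and 6 summits. Lif had 7, 11, 5 and 5. Lifr had 4, 9, 9 and 4. Jak1 had 5, 9, 7 and 5, Stat3 6, 8, 7 and 6, and Jak2 4, 6, 6 and 4. Cntfr had 4, 8, 8 and 6, and Il6st 4, 4, 9 and 5. Il6, with 2, 4, 1 and 1, and Osmr, with 1, 3, 3 and 1, had too few summits for a ratio to mean much. The Silc1-/- injured count was the lowest or equal lowest for every member except Il6st and Cntfr, and for Socs3 alone it was below all other lists. Per length, Socs3 had the densest neighbourhood, 38.4 summits per 100 kb over the 4 lists, and Osmr the sparsest, 4.96. The median over coding genes was 10.8, with quartiles of 5.79 and 17.5.

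**Figure D3:**
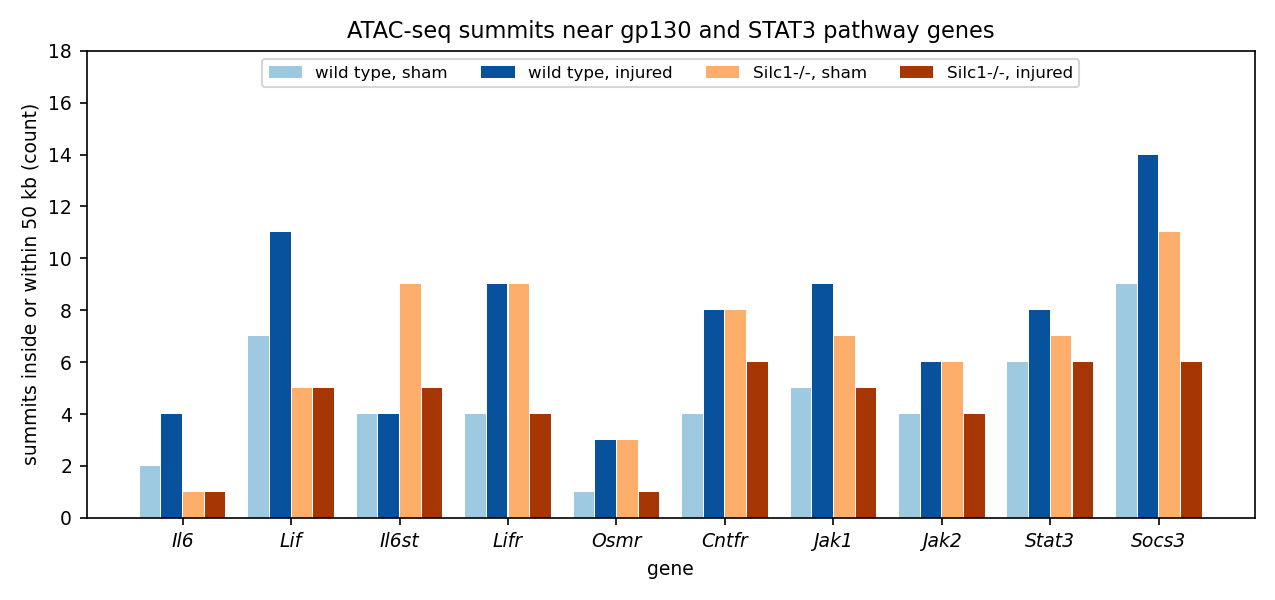
Number of summits inside each gene or within 50 kb of it (vertical axis, count, from 0) for the 10 genes (horizontal axis), 1 bar per list. The wild-type injured bar is the highest or equal highest for every gene except Il6st, whose Silc1-/- sham bar is highest at 9.

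Whether injury changed the members' part of the open sites was read from the log2 ratio of their shares of the 2 lists. In wild type it was 0.04 (-0.51 to 0.60), and in Silc1-/- ganglia -0.19 (-0.77 to 0.39), so both intervals held 0. For single genes, counts were scaled to the mean list length with a pseudocount of 1, and a difference of at least 1.5 fold was called. In wild type 1 member was higher (Osmr) and 0 lower, against 18.2% and 11.1% of coding genes. In Silc1-/- ganglia 0 were higher and 2 lower (Lifr and Osmr), against 14.4% and 16%. The median over members was 0.06 in wild type and -0.09 in Silc1-/- ganglia, beside -0.07 and 0.02 over coding genes.

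Between genotypes, sham ganglia had a log2 ratio of shares of -0.30 (-0.87 to 0.27) for Silc1-/- against wild type. Unscaled, 8 members had more summits in Silc1-/- ganglia and 2 fewer, against 70.1% and 9.61% of coding genes. After scaling, 0 were at least 1.5 fold higher and 2 lower (Il6, from 1 against 2 summits, and Lif), against 16.6% and 20% of coding genes. The count of lower members was thus the background share.

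Of the 4 comparisons, that of the genotypes after injury had the log2 ratio of shares farthest from 0. There were 43 summits near the members in Silc1-/- and 76 in wild type, and 9 of the 10 genes had fewer in Silc1-/-, against 57.3% of coding genes. Il6st had more, as did 20% of coding genes. The log2 ratio of shares was -0.53 (-1.10 to 0.03). With every list cut to its 27279 highest scores it was -0.76 (-1.43 to -0.12), from 33 and 56 summits. The interval thus held 0 for the lists as deposited and not at equal lengths. It counts each summit as independent and holds no spread between animals, so it is no test of genotype. After scaling, 5 members were at least 1.5 fold lower (Il6, Lif, Lifr, Osmr and Socs3) and 0 higher, against 17.5% and 13.7% of coding genes. Their log2 ratios were -1.12, -0.74, -0.75, -0.81 and -0.84, of which those of Il6 (1 against 4 summits) and Osmr (1 against 3) rest on very few summits. Stat3 and Cntfr differed least, at -0.11 each. The median over members was -0.61, beside -0.02 over coding genes. At equal lengths the medians were -0.40 and 0, and 5 members were also lower, against 22.9% of coding genes, of which Lif, Lifr and Socs3 were lower in both counts, and Jak1 and Jak2 took the place of Il6 and Osmr.

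In the same comparison the median of macrophage marker genes was also below 0, though not every gene was. The 10 of them had 31, 64, 49 and 39 summits. Between the injured lists their median log2 ratio was -0.52, with 3 of 10 lower (Itgam, Adgre1 and Csf1r) and 0 higher, against 17.5% and 13.7% of coding genes. Adgre1, a macrophage surface receptor, had no summit in wild-type sham, and each of the 10 had at least 1 in the other lists. Cx3cr1 and Cd68 were slightly above 0 between the injured lists, at 0.09 each. Medians for the same comparison were 0.01 for sensory neuron, -0.01 for Schwann cell and satellite glia, -0.01 for endothelial and mural and 0.07 for muscle genes. After injury in wild type, macrophage genes differed from the members. Their median was 0.51 with 5 of 10 higher, against 0.06 and 1 of 10 for the members. Over coding genes the median was -0.07, and 18.2% were higher. The part of macrophages in the members' result was not tested.

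**Figure D4:**
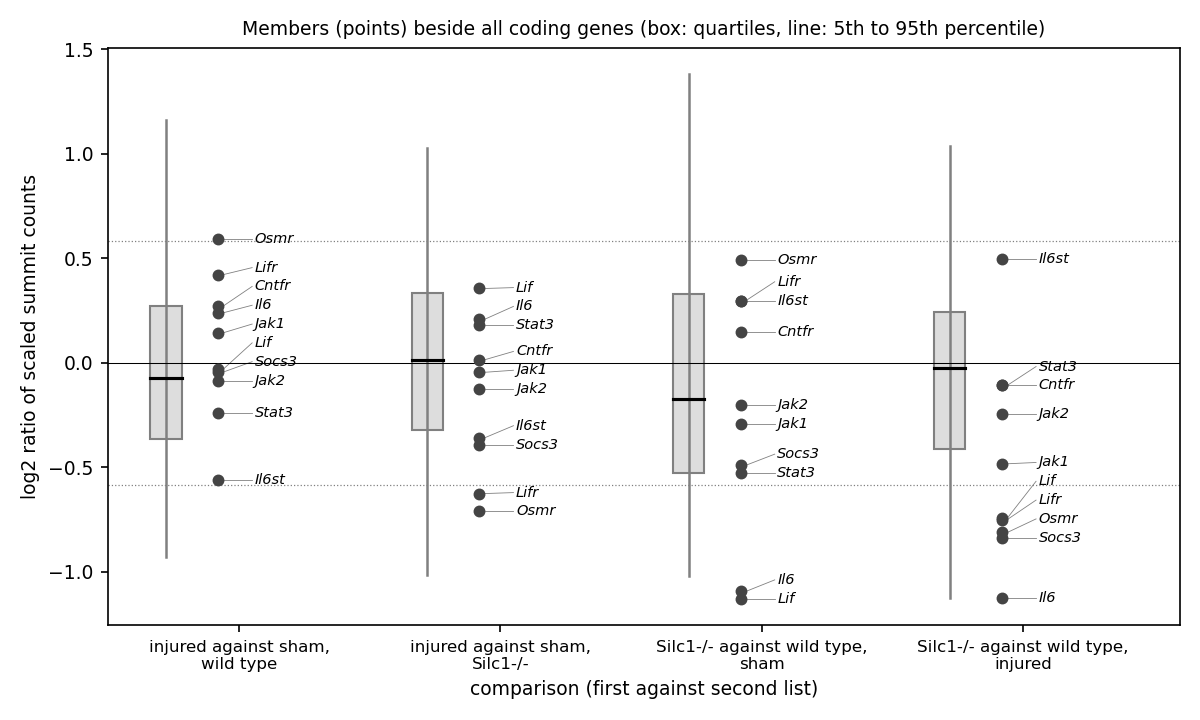
Log2 ratios of scaled summit counts (vertical axis, no unit) for the 10 genes in 4 comparisons, beside the quartiles (box) and 5th to 95th percentiles (line) of 20073 coding genes; dotted lines mark 1.5 fold. In Silc1-/- against wild type after injury, 9 genes lie below 0 and Il6st above it, with a member median of -0.61.

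Sharing between lists was examined after summits lying within 200 bp were joined, which gave 97 loci near the members among 78381. Of these, 27 (27.8%, 19.9 to 37.5) were in all 4 lists, against 18.3% of all loci. Another 38 (39.2%) were in 1 list only, against 52.4% of all loci. The comparison set of all loci was not limited to those near genes. The loci in all 4 lists made up 8 of the 10 loci within 1 kb of a member's start and 19 of the 87 farther away. This split was not counted for other genes, so it is not known whether the members differ from them. Single-list loci had low scores. In the wild-type injured list their median was 3.26, against 15.4 for loci of all 4 lists, and in Silc1-/- sham 3.01 against 10.8. Single-list loci came mostly from 2 lists, 19 from wild-type injured and 13 from Silc1-/- sham, against 16% and 21.1% of all loci. Silc1-/- injured had 3 and wild-type sham 3, against 10.8% and 4.45%.

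By treatment, 34 member loci had an injured and no sham summit in wild type and 7 the reverse, against 29.4% and 8.44% of all loci. In Silc1-/- ganglia 9 had an injured and no sham summit and 30 the reverse, against 16.4% and 32.1%. Between the sham lists 27 had a Silc1-/- summit alone and 9 a wild-type summit alone, against 36.2% and 9.74%. Between the injured lists, 37 member loci had a wild-type summit and no Silc1-/- summit, and 7 the reverse, against 27.8% and 17.6% of all loci. Of the 43 member summits in Silc1-/- injured ganglia, 83.7% (70.03 to 91.9) lay within 200 bp of one from injured wild type, against 59% of that whole list. In the other direction 48.7% (37.8 to 59.7) of 76 did, against 48.1%. With the sham lists, 74.4% (wild type) and 79.1% (Silc1-/-) of the 43 were shared, against 48.1% and 61.5%. Of the 46 member summits of wild-type sham ganglia, 84.8%, 80.4% and 69.6% were shared with the other lists in order, against 72.9%, 68.9% and 63.2%. Of the 76 of injured wild type, 51.3% were shared with wild-type sham and 61.8% with Silc1-/- sham, against 45.4% and 57.1%. Of the 66 of Silc1-/- sham, 59.1%, 72.7% and 53.03% were shared with the other lists in order, against 38.9%, 51.9% and 45.7%. The Silc1-/- injured list thus had few sites of its own near these genes.

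Loci of the 2 injured lists alone numbered 3, against 2.72% of all loci. The first was 32.4 kb upstream of Il6st, at 112431716 in wild type (score 11.6) and 112431690 in Silc1-/- ganglia (16.03). Both sham lists had a summit 218 bp or more away, at 112431472 in wild type (9.47) and 112431442 in Silc1-/- ganglia (9.55). The 4 summits are therefore 1 sham pair and 1 injured pair beside each other, and joined into 1 locus at 500 bp. The second lay 7.07 to 7.19 kb upstream of Jak1, at 101272295 in wild type (score 5.92) and 101272408 in Silc1-/- ganglia (3.09), and the nearest sham summit was 6995 bp away. The last was inside Castor1, 37.9 to 37.99 kb upstream of Lif, with scores of 5.64 in wild type and 2.68 in Silc1-/- ganglia.

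Loci in both sham lists alone numbered 2, against 1.51% of all loci. They were the Il6st site just described and a site in Cavin1, 30.3 kb upstream of Stat3, with scores of 2.23 in wild type and 3.34 in Silc1-/- ganglia. Loci in both wild-type lists alone numbered 3, against 2.38%. They lay near Osm, the oncostatin M gene next to Lif (scores 5.82 in sham and 7.70 in injured), in Pgs1 near Socs3 (3.38 and 6.36) and in Castor1 (2.57 and 5.24). Loci in both Silc1-/- lists alone numbered 2, against 4.38%. They lay 24.01 to 24.07 kb upstream of Il6st (2.42 in sham and 2.48 in injured) and inside Lifr (3.01 and 2.48). The most frequent pair was wild-type injured with Silc1-/- sham, with 9 loci, against 6.05%. The Osmr start and the Cntfr site above were among them. Wild-type sham with Silc1-/- injured had 1, against 1.16%. Loci in 3 lists numbered 3 without wild-type sham, 1 without wild-type injured, 2 without Silc1-/- sham and 6 without Silc1-/- injured, against 4.67%, 1.33%, 1.75% and 3.4%.

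Other genes of the pathway were counted in the same way. All 34 were matched, among them Osm, Stat5a and Stat5b, which share summits with the members Lif and Stat3. In wild type 1 was at least 1.5 fold higher after injury and 2 lower, against 18.2% and 11.1% of coding genes. In Silc1-/- ganglia 3 were higher and 2 lower, against 14.4% and 16%. Between genotypes, 1 was higher and 12 lower in sham Silc1-/- ganglia, against 16.6% and 20%, and 1 higher and 4 lower in injured ones, against 13.7% and 17.5%. The medians for these were -0.37 and -0.30, beside -0.17 and -0.02 over coding genes. In both treatments 2 were lower: Ptpn6, a phosphatase that restrains cytokine signalling, with 6, 13, 6 and 6 summits, and Il11, a gp130 cytokine, with 4, 8, 4 and 3. Unscaled sham counts were equal between genotypes for both genes, so in sham they were lower only after scaling to list length. No gene of the list passed the fold in the same direction after injury in both genotypes. A start within 1 kb of a summit in all 4 lists was found for 15 of the 21 with a known start, against 44.4% of coding genes.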

How the data were processed

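Per the labels, 12 ATAC-seq libraries fall into 4 groups of 3. The deposited files are 1 summit list per group. The mm10 build, Bowtie2 and MACS2 are named in the submitters' processing notes. Their versions, read filters, pooling and any shift of insertion positions were not given in the sources used here. The deposited score of each summit is on a −log10 scale (p or q, not stated). The smallest was 1.30, which is −log10 of 0.05.

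Positions are 1-based. Genes came from RefSeq (GRCm38.p6), starts and sequences from a table of promoter windows that matched all 10 members. The table has no exons, so exonic or intronic position is not given. Summits were joined to loci within 200 bp. Shares have Wilson intervals and ratios exact binomial ones. A rule named all loci in both injured or both sham lists alone, and the 3 highest of each genotype. It also named pathway genes past 1.5 fold in 1 direction in both genotypes or both treatments. Other sites away from the starts, such as those of Lif, Socs3, Osmr and Jak1, were named outside this rule. Members and lists were chosen with earlier results of these data known. All 2000 planted loci of a simulation were recovered. They were spaced far wider than the joining distance, so this checked the code and not how crowded summits are joined. Alternatives were score minimums, equal list lengths, neighbourhoods, the nearest gene and joining distances. Python 3.11.15, numpy 2.4.6, pandas 2.3.3, scipy 1.17.1 and matplotlib 3.10.9 were used.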

Additional observations from a re-analysis of the deposited data

Results flagged for a closer look

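Summits near the 10 genes went opposite ways after injury in the 2 genotypes. The injured list had 1.65 times as many as the sham list in wild type and 0.652 times as many in Silc1-/- ganglia. Each genotype has 1 list per treatment, so the difference was not tested. The whole lists differed in length by 1.61 and 0.741 times in the same directions.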

How the results depend on the processing

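No paired analysis was possible because each group has 1 list, and for the same reason no replicate could be left out. Of the 4 log2 ratios of shares, none left its counting interval under any alternative. Injured against sham was 0.11 to 0.28 in wild type and -0.50 to -0.14 in Silc1-/-. Silc1-/- against wild type after injury was -0.76 to -0.17, and its interval left out 0 at a score of at least 5 and at equal list lengths. These intervals cover counting error only and are no test of genotype. In sham ganglia the ratio was above 0 at a score of at least 10, at 0.10. Loci in all 4 lists numbered 15 at a score of at least 5, 9 at a score of at least 10 and 13 within 10 kb. Loci in both injured lists alone numbered 1 at a score of at least 5, 1 within 10 kb and 6 within 100 kb. Loci in both sham lists alone numbered 1 at a score of at least 10, 0 within 10 kb, 1 where the member was the nearest coding gene, 5 when joined within 50 bp, 1 within 500 bp and 0 within 1000 bp. With every list at the shortest length, 2 members were at least 1.5 fold higher after injury in wild type (Lifr and Jak1, without Osmr). There 1 was lower (Il6), and the shares of coding genes were 17.3% and 12.7%. In Silc1-/- 1 was higher (Jak1) and 3 lower (Lifr, Osmr and Socs3), against 15.0% and 18.2%. Between genotypes in sham ganglia 1 was higher (Osmr) and 3 lower (Il6, Lif and Jak1), against 16.7% and 16.8%. Stricter scores and narrower neighbourhoods leave fewer summits by construction. The cause of the other changes was not tested. Depth is unknown and limits all of these counts.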

Other observations

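Of 20 genes known to respond to STAT3 or gp130 cytokines, all were matched. After injury 4 were at least 1.5 fold higher and 4 lower in wild type, against 18.2% and 11.1% of coding genes, and 1 was higher and 3 lower in Silc1-/- ganglia, against 14.4% and 16%. Gal, which encodes the neuropeptide galanin, had 2 (sham) and 9 (injured) summits in wild type, and 4 (sham) and 1 (injured) in Silc1-/- ganglia. Hspb1, a small heat shock protein gene, had 3, 8, 7 and 8 in the same order, and a summit within 1 kb of its start in the 2 injured lists alone. Both were chosen after their values had been seen.

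Low scores took few distinct values. In the wild-type injured list, 2320 summits shared the score of the Osmr start, 1.98778, and 2791 shared the score 2.56576 of a site upstream of Il6.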
